A study of Mus musculus with 4 samples.

Results

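The abundant long intergenic noncoding RNAs (lincRNAs) of the fetal mouse cortex were selected on their raw counts. They are every gene that the authors' annotation gives the biotype lincRNA, that both deposited tables list, and that had at least 100 counts in each of the 4 libraries, leaving out the imprinted RNAs H19, Meg3, Rian and Mirg. This gave 107 genes of the 1006 lincRNA genes and the 20385 genes of any kind that both tables list, and Gm42047, which the rule names, was among them. The tissue was cerebral cortex, taken at embryonic day 16 from mice of the C57BL/6 strain that were wild type (WT) or carried a Cd93 knockout (KO), and its RNA was sequenced. Cd93 encodes a membrane glycoprotein of endothelial cells that binds the matrix protein multimerin 2, and the study's title ties it to the formation of astrocytes through the transcriptional repressor ZFP503. Each genotype had 2 libraries, WT 1 and WT 4 against KO 5 and KO 6, and the labels do not say that each came from its own animal, so the p-values below measure the spread between these libraries. The labels name neither the allele nor a Cre driver, and the design text speaks of triplicates while 4 libraries were analysed here.

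A lincRNA is transcribed and usually spliced like a messenger RNA but encodes no known protein. Some act in the nucleus as structural RNA, as Xist does when it coats the inactive X chromosome or Malat1 in the speckles where splicing factors collect. Others are mainly the precursor of a small RNA, since a microRNA hairpin or a small nucleolar RNA is cut out of their exon or intron, and many start back to back with a protein-coding gene and share its promoter region. In the developing cortex the microRNAs miR-9 and miR-124 are known for their roles in neural progenitors and in neurons.

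The depth was 16318317 to 17586157 counts per library, and Cd93 itself had 680 (WT 1), 409 (WT 4), 111 (KO 5) and 99 (KO 6) counts, the order in which groups of 4 values are given below. Neurod6, a marker of cortical projection neurons, had 25279, 26254, 26753 and 27037 counts. WT 1 stood apart in genes of neighbouring tissue and in those of vessels and microglia. The summed level of 12 meningeal and fibroblast genes was 546 CPM (counts scaled to a common library size) in WT 1 and 45.6 to 86.8 CPM in the other libraries, and that of 20 genes of the ganglionic eminence and striatum was 1088 CPM in WT 1 and 384 to 585 CPM in the others. The summed level of 12 endothelial genes was 315 CPM in WT 1 and 190 to 199 CPM in the others. For 12 microglia and border macrophage genes it was 123 CPM in WT 1 and 66.1 to 69.8 CPM in the others. Choroid plexus genes were also highest in WT 1, while thalamus genes were lowest there and red cell genes were highest in KO 6. The summed level of 12 cortical neuron and progenitor genes was lowest in WT 1, at 3826 CPM, against 4256 to 4716 CPM in the other libraries. In tissue RNA, fewer cells of a type and less RNA per cell cannot be told apart.

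Small RNAs were the most direct product that the annotation gave for these genes. By GENCODE release 21, on GRCm38, 29 microRNA hairpins overlapped 15 of the 107 lincRNAs on the same strand, 14 of them wholly in an exon of the host, 11 in an intron and 4 across an exon's edge. Of the last, 2 reached beyond the host itself: only 3 of the 68 bases of Mir124a-3 fell in Gm27032 and 11 of the 87 of Mir181a-1 in A430106G13Rik. RefSeq (GRCm38.p6) gave mature sequences for 12 of these hosts, 41 mature microRNAs in all, with 35 different seeds. The seed, bases 2 to 8, pairs with target messenger RNAs and is shown in capitals, 5′ to 3′. The first pair is shown because all 3 genes of miR-9 lay in abundant lincRNAs, namely Gm3764, C130071C03Rik and Mir9-3hg.
miR-9-5p: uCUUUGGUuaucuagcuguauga
miR-9-3p: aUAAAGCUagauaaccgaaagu

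The cluster in Mir17hg, known for its role in cell proliferation, is shown because its members share seeds. miR-17-5p and miR-20a-5p had the same seed, miR-19a-3p and miR-19b-3p had the same seed, and miR-18a-5p and miR-92a-3p had seeds of their own.
miR-17-5p: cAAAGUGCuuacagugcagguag
miR-20a-5p: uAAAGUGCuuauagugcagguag
miR-18a-5p: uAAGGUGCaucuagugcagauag
miR-19a-3p: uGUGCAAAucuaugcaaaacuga
miR-19b-3p: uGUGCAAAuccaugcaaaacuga
miR-92a-3p: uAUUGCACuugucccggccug

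The remaining hosts include one with a cluster of its own. One of the 2 genes named A230057D06Rik (chr7:61704519-61829422, minus strand) carried 5 hairpins of the miR-344 family, among whose products 3 seeds were each shared by 2 mature microRNAs, miR-344d-3p and miR-344e-3p being such a pair. This pair is shown with microRNAs of other hosts whose names are well known in brain. A430106G13Rik overlapped the hairpins of miR-181a and miR-181b, which share a seed, C78859 held miR-138, Mir670hg held miR-129 and E130102H24Rik held miR-101a.
miR-344d-3p: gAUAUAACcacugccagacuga
miR-344e-3p: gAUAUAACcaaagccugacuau
miR-181a-5p: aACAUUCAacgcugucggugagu
miR-181b-5p: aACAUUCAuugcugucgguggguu
miR-138-5p: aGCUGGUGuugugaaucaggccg
miR-129-5p: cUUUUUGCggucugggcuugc
miR-101a-3p: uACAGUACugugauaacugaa

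The 3 genes of miR-124, Mir124a-1, Mir124a-2 and Mir124a-3, lay in an exon of Mir124a-1hg, across the edge of an exon of Mir124-2hg (27 of 109 bases) and, for its last 3 bases, in Gm27032, which begins there. These libraries measured the long host transcripts, since mature microRNAs are too short for such libraries.

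The miR-9 hosts were among the lincRNAs with the most counts, and the libraries of the genotypes overlapped in each of them. Gm3764 (chr3:88206813-88229959, plus strand, Mir9-1 in an intron) had 13756, 14521, 16313 and 13453 counts. C130071C03Rik (chr13:83721381-83884194, plus strand, Mir9-2 in an exon) had 8532, 8904, 9105 and 8916 counts. In the first gene KO 5 was highest. There KO 6 was lowest in counts, but WT 1 was lowest after scaling (773, 852, 930 and 828 CPM). In the second gene WT 1 was lowest and the other 3 lay close together. Mir9-3hg (chr7:79500026-79534403, plus strand, Mir9-3 in an intron) had 2972, 2993, 3193 and 2527 counts, with KO 5 highest and KO 6 lowest. The log2 fold changes, KO over WT, were 0.11 (SE 0.12) for Gm3764, 0.09 (SE 0.11) for C130071C03Rik and -0.02 (SE 0.12) for Mir9-3hg. Summed, the 3 miR-9 hosts averaged 1485 ± 92.3 CPM over the WT libraries and 1582 ± 69.7 CPM over the KO libraries (SD, n = 2 each).

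The lincRNAs that overlap the miR-124 hairpins spanned a wide range of counts, and none of them passed the test described below. Mir124a-1hg (chr14:64587331-64593961, plus strand) had 8516, 7150, 7391 and 7502 counts, with WT 1 highest and WT 4 lowest. Mir124-2hg (chr3:17789921-17808970, plus strand) had 1880, 1687, 1430 and 1498 counts, and both KO libraries lay below both WT libraries. Gm27032 (chr2:180894105-180895220, plus strand) had 431, 237, 197 and 246 counts, with WT 1 standing above the other 3, which overlapped. For Mir124-2hg the log2 fold change was -0.24 (SE 0.11), at an edgeR p of 0.0694 and an adjusted p of 0.9999, and it was between -0.32 and -0.15 under all alternatives tried. Gm27032 had the lowest value of all 107 genes, -0.53 (SE 0.29), and Mir124a-1hg had -0.02 (SE 0.12). Without WT 1 the value of Gm27032 was nearest to zero of all alternatives, -0.08, and WT 1 was also the library with the most RNA of ganglionic eminence and meningeal genes, whose part in this value was not tested. Summed, the 3 genes averaged 570.5 ± 53.8 CPM over the WT libraries and 542 ± 38.9 CPM over the KO libraries (SD, n = 2 each). This sum includes Gm27032, which held only 3 of the 68 bases of Mir124a-3.

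**Figure D1:**
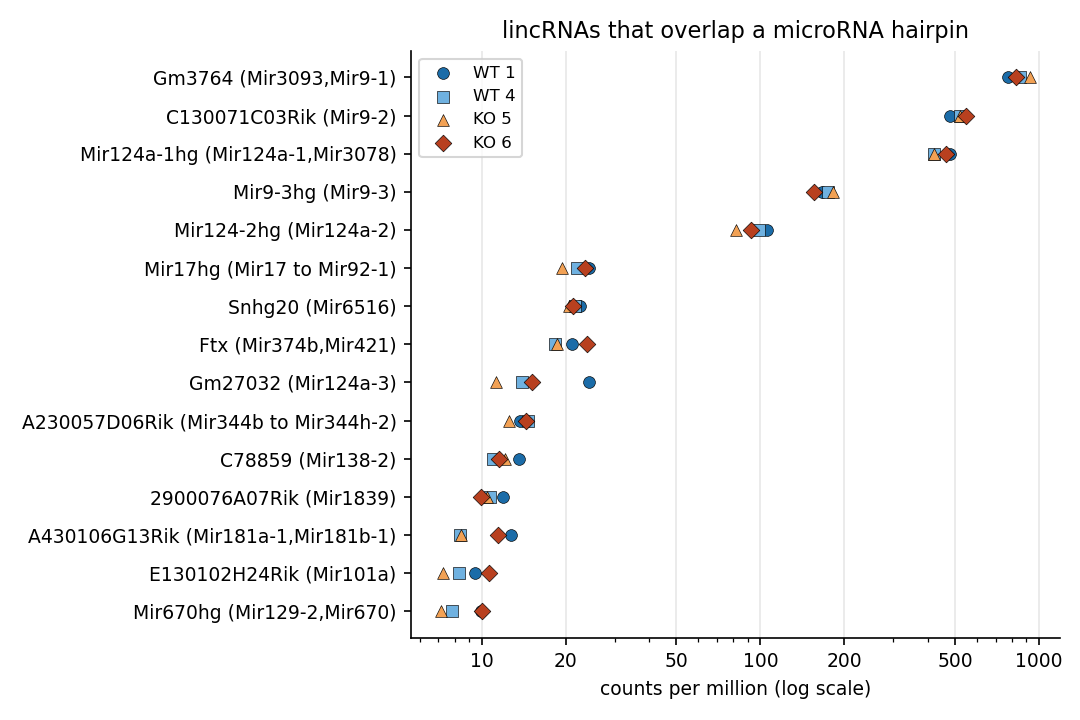
Levels in CPM of the 15 lincRNAs that overlap a microRNA hairpin (hairpins in brackets), on a log axis, with 1 point per library. The hosts of miR-9 and Mir124a-1hg are the highest, from 169 CPM or more on average in KO, and in Gm27032 the WT 1 point lies above the other 3.

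Of the 15 hosts 4 were higher and 11 lower in KO, the median log2 fold change was -0.05, and edgeR called none of them, beside a median of -0.00 over all 16371 genes tested. Mir17hg (chr14:115042879-115046727, plus strand) had 432, 376, 340 and 383 counts and a log2 fold change of -0.11 (SE 0.15). A430106G13Rik had 227, 142, 148 and 186 counts, high in WT 1 and KO 6. The host of the miR-344 cluster had 244, 251, 220 and 234 counts, with a log2 fold change of -0.08 (SE 0.17). Of 14 microRNA host transcripts listed by name, the tables held 11, of which 6 were among the 107, and 2 were higher and 9 lower with none called by edgeR. Among the others on that list, Mir99ahg had a log2 fold change of 0.25 (SE 0.12) and Dleu2 of -0.24 (SE 0.17).

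Hosts of small nucleolar RNAs, which guide the chemical modification of ribosomal RNA, made up a smaller group. Of the 107 genes 6 held such a gene by GENCODE, and 1 was higher and 5 were lower in KO, with values from -0.15 to 0.17. Snhg12 (5 small nucleolar RNA genes) had 366, 292, 327 and 389 counts, Snhg6 had 522, 458, 433 and 497, and Snhg20 had 402, 370, 362 and 345. Only in Snhg20 of these 3 did both KO libraries lie below both WT libraries after scaling, and its log2 fold change was -0.08 (SE 0.13). Snhg18 had 202, 216, 214 and 164 counts, and Epb41l4aos 211, 192, 156 and 226. Of 20 host names listed, 15 were tested, 4 higher and 11 lower with none called by edgeR. Gas5, the best known host of this kind and not a lincRNA by the authors' biotype, was at -0.32 (SE 0.16).

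Nuclear RNAs included the most abundant genes of all. Xist (chrX:103460375-103483217, minus strand) had 23675, 21264, 19747 and 24670 counts, the highest of the 107 in each library, with KO 5 lowest and KO 6 highest. Its log2 fold change was 0.04 (SE 0.16). Miat (chr5:112213228-112229395, minus strand), a nuclear RNA of neurons that binds splicing factors, had 19063, 13677, 14922 and 16129 counts, and a log2 fold change of -0.02 (SE 0.17). Ftx and Jpx, genes of the X inactivation centre that act on Xist, had far fewer. Ftx had 376, 312, 328 and 388 counts (log2 fold change 0.11, SE 0.17), and Jpx had 149, 117, 138 and 114 (-0.03, SE 0.23). The counting strand is not given in the sources used here, and an unstranded kit would not tell Xist from its antisense partner Tsix, which shares 11.6% of the 25-base words of Xist and was not analysed here. The same limit holds for Miat, with 22.1% of its words in Gm26953 on the opposite strand. It also holds for the miR-9 host C130071C03Rik, with 22.7% in Gm33366, and exons of Malat1 too overlap a gene on the opposite strand.

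Per kilobase of exon the order of levels changed. 6330403K07Rik, at 7211, 7157, 7197 and 7787 counts, came first with a mean level of 287 CPM per kb of GENCODE exon. Gm3764 followed at 146, Miat at 100.02, Mir124a-1hg at 92.7, C130071C03Rik at 91.4 and 2900097C17Rik at 75.0 CPM per kb, and Xist, whose exons add up to 17946 bases, was seventh at 72.8. 2900097C17Rik is the gene of Norad, an RNA that binds Pumilio proteins, and 1700020I14Rik that of Cyrano, which directs the decay of a microRNA. 2900097C17Rik had 6312, 6613, 6271 and 6083 counts, and 45.3% of its 25-base words also occur in Gm7292, so its reads could have been split by the authors' counting. 1700020I14Rik had 4286, 4678, 4065 and 4422 counts, or 30.7 CPM per kb. The genotypes overlapped in both, with log2 fold changes of -0.02 (SE 0.11) and -0.03 (SE 0.13).

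**Figure D2:**
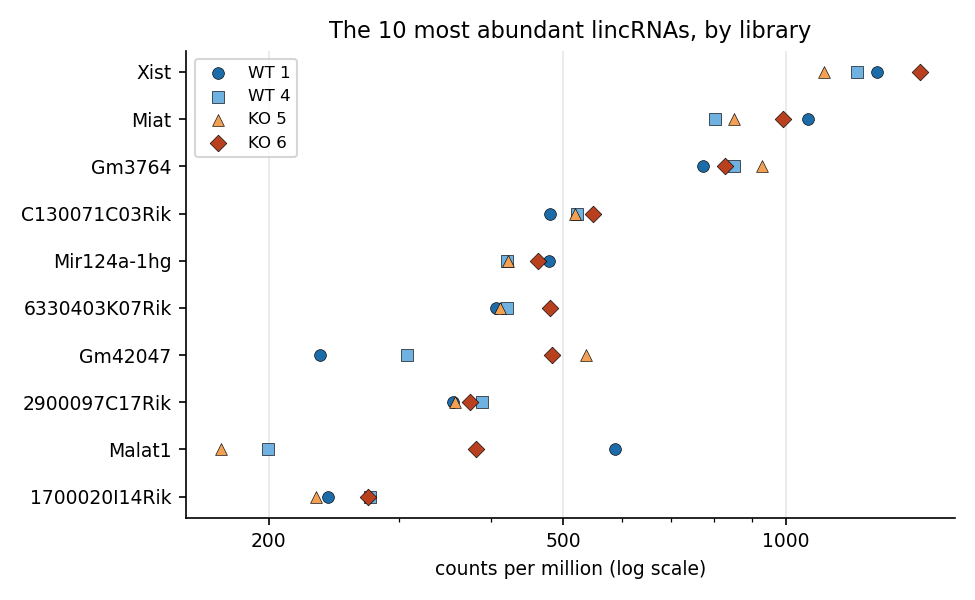
Level in CPM in each library for the 10 lincRNAs with the highest mean, on a log axis, with 1 point per library. The libraries of each gene lie close together except in Malat1, where WT 1 and KO 6 lie above WT 4 and KO 5, and in Gm42047, where both KO points lie above both WT points.

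The 107 genes held 0.755% to 0.853% of all counts in a library, and the 10 most abundant in each library held 71.5% to 74.01% of those. The mean level ran from 6.46 to 1306 CPM with a median of 16.1, and 61 genes were under 20 CPM. Symbols of 82 of the 107 were clone, Riken or predicted-gene names. At the threshold of 100 counts, 2810032G03Rik (101, 107, 119, 120), Gm26724 (103, 109, 112, 118) and Gm20045 (118, 138, 105, 188) lay just inside. Just outside were Gm37584 (133, 99, 126, 125), Gm16576 (97, 106, 119, 115) and Gm20751 (119, 94, 130, 115).

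Between genotypes no abundant lincRNA passed the test over all 4 libraries. With edgeR's quasi-likelihood test over all 4 libraries and Benjamini-Hochberg adjustment over 16371 genes, 0 of the 107 passed an adjusted p of 0.05, against 0.0122% of all genes tested (2 genes). Cd93, the gene knocked out, did not pass either, at a log2 fold change of -2.32 (SE 0.25) and an edgeR adjusted p of 0.21. A gene that did not pass is thus not shown to be unchanged. At an unadjusted edgeR p of 0.05, 2 of the 107 passed, where 1.94% of all genes did. DESeq2 called 1 of the 107 and limma-voom 0. In the edgeR fit 52 were higher and 55 lower in KO. Their log2 fold changes had a median of -0.01 and a median absolute value of 0.11, beside -0.00 and 0.09 over all genes tested. For protein-coding genes with at least 100 counts in each library the median absolute value was 0.06, and the difference was not tested. Of the 107, 95 were within 0.25 of zero on the log2 scale and 3 were beyond 0.5.

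The precision limits what this shows for each gene. The 95% interval of the log2 fold change lay within a 2-fold change in either direction for 101 of the 107 and within a 1.5-fold change for 60. The 6 whose interval reached 2-fold were Gm42047, Malat1, Gm26917, Gm27032, D230017M19Rik and Gm20045. In 24 of the 107 the KO libraries lay wholly on 1 side of the WT libraries in CPM, 9 higher and 15 lower. Over all genes tested 23.4% did so, 11.5% higher and 11.9% lower, and among all genes with at least 100 counts in each library 19.5%, so the count is near the background.

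**Figure D3:**
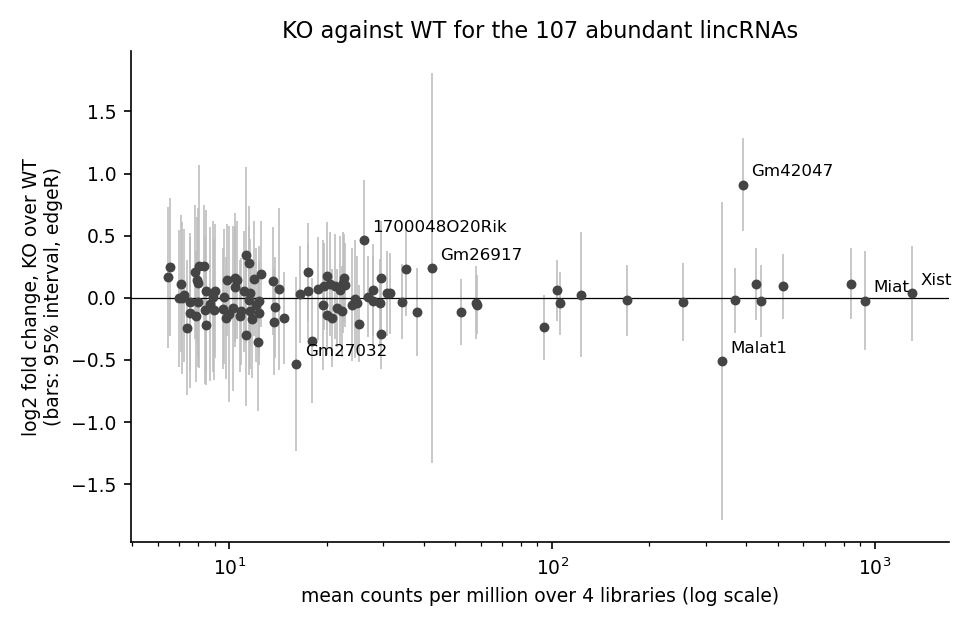
Log2 fold change, KO over WT, against the mean CPM for the 107 lincRNAs (log axis), with bars for the 95% interval of the edgeR fit. Gm42047 at 0.91 is the only gene whose bar stays clear of zero by more than 0.5, and the bars of Malat1 and Gm26917 are the widest among the more abundant genes.

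Gm42047 was the gene with the highest fold change, and the rule names it because earlier results of these data had shown it, so its values are a description. It is annotated on GRCm38 at chr8:121833247-121841178, plus strand, 3678 bases from Klhdc4. It had 4178, 5237, 9408 and 7840 counts. Both KO libraries were thus above both WT libraries. The log2 fold change was 0.91 (SE 0.15, 95% interval 0.54 to 1.28) with an edgeR p of 0.00078 and an adjusted p of 0.9999. Within the deposited tables the log2 ratio was 1.04 in the first (KO 6 over WT 1) and 0.80 in the other (KO 5 over WT 4). Within genotypes it was -0.39 (WT 1 over WT 4) and -0.15 (KO 6 over KO 5). The authors' deposited tables compare 1 library with 1 library. There Gm42047 is listed at a log2 fold change of 1.02 and marked significant for KO 6. For KO 5 it is listed at 0.81 and not marked, although the authors' adjusted p for KO 5 against WT 4 is 9.29e-241. The missing mark thus does not stand for a large adjusted p, and the authors' rule for the mark was not examined. Gm42047 was the only one of the 107 marked for KO 6, where 4.75% of all genes were. None of the 107 was marked for KO 5, where 2% of all genes were.

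Other fits called this gene. DESeq2 gave it an adjusted p of 4.84e-05 (0.0442% of all genes called), edgeR with the deposited table as a block 0.0033 (0.177% called), and edgeR without WT 4 gave 1.12 with an adjusted p of 0.00049 (1.82% called). Neither edgeR without WT 1 (0.259% called), KO 5 (0.0291%) or KO 6 (0.0466%) nor edgeR with no filter on low counts (0.00981%) called it, and over all alternatives its log2 fold change was between 0.73 and 1.12.

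The authors' annotation gives Gm42047 the retroviral capsid domain Gag_p30 and a best protein match named Pol polyprotein, that is, sequence of an endogenous retrovirus, a copy of a virus fixed in the mouse genome. Of its 25-base words, 75.1% also occur in transcripts of other GENCODE genes, 41.4% in Gm48362, so reads of related copies could have been counted here or left out, and the value is uncertain for that reason. The neighbours did not share the difference: Klhdc4 had a log2 fold change of -0.02 (SE 0.11) and Slc7a5, an amino acid transporter gene, -0.15 (SE 0.15). Among all genes that the deposited annotation gives a retroviral gag or envelope domain, a set chosen after the values were seen, 25 were tested, 15 higher and 10 lower in KO with a median of 0.05. Over all 4 libraries edgeR called none of the 25, the other fits named above called Gm42047, and the fit without WT 1 called AI506816, which is not a lincRNA. Of these 4 were among the 107. Gm26809 had 358, 494, 457 and 368 counts (-0.01, SE 0.20), AU020206 had 177, 184, 238 and 189 (0.28, SE 0.19), and Gm43660 had 108, 140, 115 and 125 (-0.00, SE 0.26). Only in AU020206 of these 3 were both KO libraries above both WT libraries.

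The next smallest p-values belonged to genes with no described role. 4930516B21Rik had 568, 562, 463 and 433 counts, both KO libraries below both WT libraries, with a log2 fold change of -0.29 (SE 0.12) and an edgeR p of 0.0442 before adjustment. 1700048O20Rik had 390, 373, 426 and 588 counts and a log2 fold change of 0.46 (SE 0.20), and KO 6 alone lay far above the rest. Neither passed after adjustment (adjusted p of 0.9999 each). Exons of 1700048O20Rik overlap those of another gene on the same strand, which limits its counts. The other genes of smallest p that were higher were Gm17750, AU020206, A430046D13Rik and Gm17354, from 0.21 to 0.28. Those that were lower were AC163032.1 at -0.34, D930016D06Rik at -0.21 and D030068K23Rik at -0.36, beside Mir124-2hg and Gm27032, which overlap miR-124 hairpins.

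The clearest contrasts among the 107 lay between libraries of the same genotype. Malat1 (chr19:5795690-5802672, minus strand) had 10457, 3405, 3025 and 6197 counts. The 2 libraries of the first deposited table, WT 1 and KO 6, were thus both above the 2 of the other, WT 4 and KO 5, in either genotype. The log2 ratio was 1.56 within WT and 1.14 within KO, first table over the other, against -0.51 (SE 0.53) for KO over WT. Without WT 4 edgeR called Malat1 lower in KO, at -1.08 (adjusted p 0.013). Its log2 fold change turned to 0.47 when WT 1 was left out, so the direction depended on which WT library was used. Neat1, the neighbour of Malat1 that builds the paraspeckles, fell short of 100 counts, with 48, 53, 49 and 21.

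Gm26917 had the opposite pattern. This gene (chr17:39843013-39846341, plus strand) had 338, 1001, 1245 and 333 counts, low in WT 1 and KO 6 and high in WT 4 and KO 5, with log2 ratios of -1.62 and -1.79. It is on the list of genes that share sequence with ribosomal RNA, so its counts may hold ribosomal RNA reads. CT010467.1, a ribosomal RNA gene on that list, had 1870, 4182, 4954 and 1968 counts, the same order of tables. Removing the listed ribosomal genes from the scaling left 0 of the 107 called. What set these counts apart between the tables was not tested.

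Taken in both directions, the lincRNAs separated by table at a share near that of all genes, but more often higher in the first table. Of the 107, 33 were higher in both libraries of the first table than in both of the other and 14 were lower, while 60 overlapped. The 47 that separated are 43.9%, near the background of 45.8% over all genes tested (23% higher and 22.8% lower) and of 49.4% over genes with at least 100 counts in each library (21.4% higher and 27.9% lower). By direction the 107 leaned to the first table, 33 against 14, while genes with at least 100 counts leaned to the other. This difference was not tested. Of the 47, 5 averaged over 0.5 on the log2 scale. Gm27032, 4932422M17Rik and A430106G13Rik were the others beside Malat1 and Gm26917. Pantr1, transcribed away from the cortical transcription factor gene Pou3f3, had 2523, 1743, 1820 and 2350 counts, with log2 ratios of 0.47 within WT and 0.48 within KO, and 0.03 (SE 0.21) for KO over WT. Across the 107 genes, which share the libraries and are not independent, Pearson's r between the WT 1 over WT 4 and KO 6 over KO 5 ratios was 0.51 and Spearman's rho 0.27. Without Malat1 and Gm26917 r was 0.21 and rho 0.23, and over 10533 protein-coding genes of at least 100 counts they were 0.28 and 0.25. The meningeal and ganglionic eminence genes were also higher in WT 1 than in WT 4 and in KO 6 than in KO 5, by medians of 2.68 and 0.79 for the first list and 1.06 and 0.84 for the second, and their part in the lincRNA values was not tested.

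**Figure D4:**
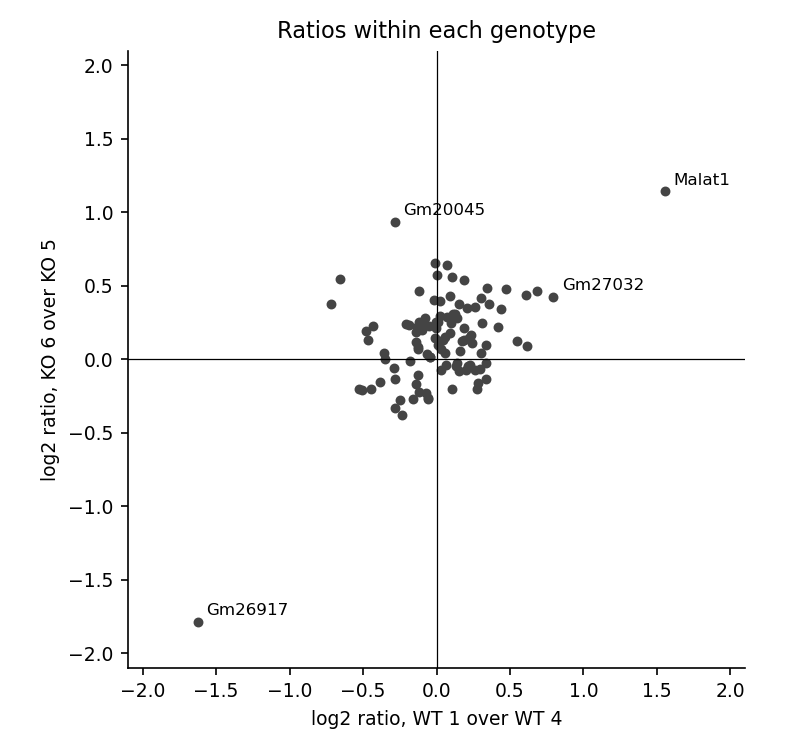
Log2 ratio of WT 1 over WT 4 (horizontal) against KO 6 over KO 5 (vertical) for the 107 lincRNAs, 1 point per gene. Malat1, at 1.56 and 1.14, and Gm26917, at -1.62 and -1.79, lie far from the other points along the diagonal, and Gm20045 has the next largest ratio between the KO libraries, 0.94.

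Most of the abundant lincRNAs varied less than these between libraries. The median absolute log2 ratio of the 107 was 0.17 between the WT libraries and 0.21 between the KO libraries. It was 0.13 and 0.15 for 10533 protein-coding genes with at least 100 counts in each library. With the same minimum it was 0.17 and 0.20 for 39 antisense RNA genes and 0.16 and 0.27 for 59 processed-transcript genes. These differences were not tested. The median signed ratio was 0.03 in WT and 0.13 in KO, beside -0.02 and -0.02 for those protein-coding genes. For the antisense RNA genes it was -0.01 and 0.05, and for the processed-transcript genes 0.07 and 0.21. The largest ratios besides Malat1 and Gm26917 were 0.80 for Gm27032 and -0.72 for 4933404O12Rik (186, 294, 222 and 267 counts) in WT, and 0.94 for Gm20045 and 0.66 for AL590503.1 (147, 142, 117 and 172 counts) in KO.

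Position was a feature that the rule did not use. Of the 107 genes 17 had a protein-coding gene that starts on the other strand within 1 kb, among them Pantr1 with Pou3f3 (926 bases), Snhg18 with Sema5a (151 bases), a guidance receptor gene, and 4930516B21Rik with Exog (74 bases). In 14 of these 17 the lincRNA and its partner had log2 fold changes of the same sign, with Pearson's r 0.50 and Spearman's rho 0.49, and edgeR called no partner. The partners share libraries, and in 1 case their gene spans overlap. For the nearest protein-coding gene within 100 kb, which 95 of the 107 had, the sign was shared in 62, with r 0.08 and rho 0.19. G630016G05Rik, which starts 1386 bases from the homeobox gene Meis2, was at -0.30 (SE 0.24) beside -0.30 (SE 0.14) for Meis2, with 263, 172, 169 and 171 counts against 7425, 5918, 5923 and 4633. In 1810058I24Rik a log2 fold change of -0.03 stood beside -1.46 for its neighbour Slc13a4, which had 66, 4, 7 and 17 counts.

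**Figure D5:**
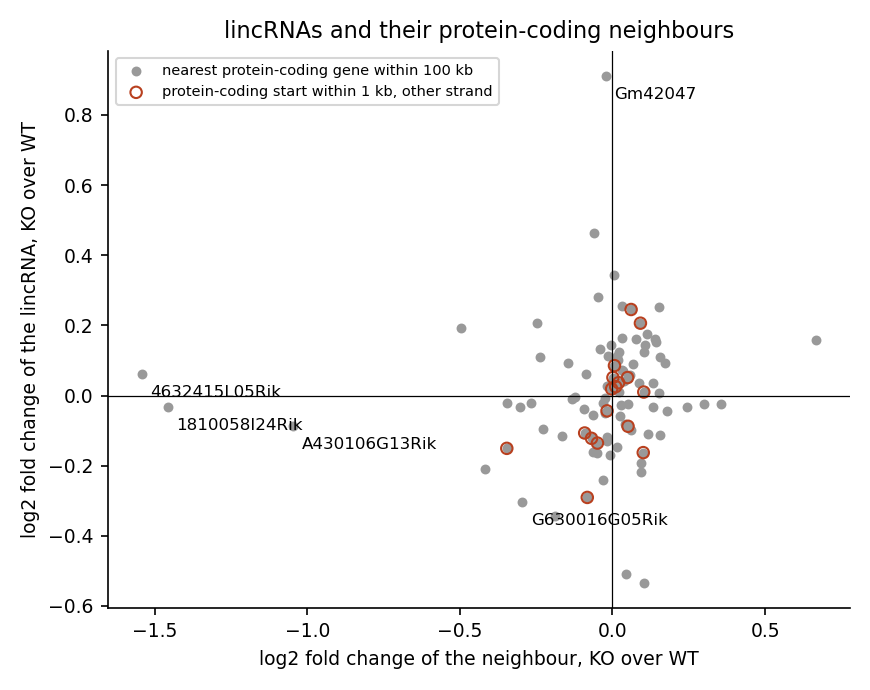
Log2 fold change, KO over WT, of the lincRNA (vertical) against that of the nearest protein-coding gene within 100 kb (grey, 95 pairs), with the 17 pairs that start within 1 kb on opposite strands ringed. Gm42047 is at 0.91 beside a neighbour at -0.02, and the neighbours furthest from zero, at -1.54, -1.46 and -1.05, stand beside lincRNAs within 0.1 of zero.

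CpG content of the start regions was another feature outside the rule. RefSeq gave a promoter window, 250 bases before to 50 after the start, for 55 of the gene symbols, of which 63.6% held at least 10 CG dinucleotides, against 43.9% of 27025 RefSeq promoters of the same length. The latter were taken whatever their counts in these libraries, while the 55 were selected on counts, so the sets differ in more than biotype. The dinucleotide CG reads the same on both strands. The RefSeq start lay within 1 kb of the deposited start for 47 genes. The 10 of these with a protein-coding start opposite had a median of 36.5 CG, from 16 to 54. The 37 without had a median of 14, from 0 to 47, and 64.9% of them held at least 10. A CpG-rich and a CpG-poor window, from near the ends of these ranges, are shown from GRCm38.p6 with each CG in capitals. Fam120aos, which starts 270 bases from Fam120a on the other strand, had 54 in chr13:48967862-48968161, plus strand, while 1700048O20Rik, with no such partner, had 1 in chr9:121937025-121937324, plus strand.
Fam120aos: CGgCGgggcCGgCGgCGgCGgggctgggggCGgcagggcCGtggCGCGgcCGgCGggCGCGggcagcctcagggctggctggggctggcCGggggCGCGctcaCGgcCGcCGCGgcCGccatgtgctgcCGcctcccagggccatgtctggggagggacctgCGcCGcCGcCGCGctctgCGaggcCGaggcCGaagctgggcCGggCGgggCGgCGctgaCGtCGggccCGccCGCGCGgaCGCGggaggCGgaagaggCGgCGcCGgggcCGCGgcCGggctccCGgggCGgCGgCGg
1700048O20Rik: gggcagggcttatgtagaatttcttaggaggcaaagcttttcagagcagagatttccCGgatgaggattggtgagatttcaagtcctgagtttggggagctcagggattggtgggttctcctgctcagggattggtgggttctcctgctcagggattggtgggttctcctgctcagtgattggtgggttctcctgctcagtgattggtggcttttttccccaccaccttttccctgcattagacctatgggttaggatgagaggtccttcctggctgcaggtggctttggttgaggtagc

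The libraries of the genotypes overlapped in the first of these genes. Fam120aos had 301, 300, 342 and 264 counts with a log2 fold change of 0.05 (SE 0.16), and Fam120a itself was at 0.05. The values of 1700048O20Rik are given above.

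Some of the 107 share sequence with each other or with other genes, which limits their counts. AI480526, Gm38102 and 4932422M17Rik overlap at the start of Setd1b, a histone methyltransferase gene, and 73.5% of the 25-base words of Gm38102 and 58.6% of those of 4932422M17Rik also occur in AI480526, which lies on the opposite strand. They had 2022, 1732, 1797 and 1728 counts (AI480526), 788, 598, 674 and 568 (Gm38102), and 229, 136, 140 and 180 (4932422M17Rik). WT 1 was highest in all 3, and their log2 fold changes were -0.04, -0.11 and -0.13. Exons of 31 of the 107 overlapped those of another gene, 26 of them on the opposite strand, and 14 of the 31 were higher and 17 lower in KO.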

How the data were processed

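Cortex RNA of 4 libraries (2 WT, 2 Cd93 KO) was prepared with an Illumina TruSeq RNA kit, per the labels. The authors deposited 2 tables, WT 1 with KO 6 and WT 4 with KO 5, each with raw counts for Ensembl genes, per the file headers, and with the authors' log2 fold changes and adjusted p-values of 1 library against 1 library. HTSeq 0.6.0, TopHat2 2.0.12, Bowtie2 2.2.3 and the build mm9 are named in the submitters' processing notes, yet 91.4% of the gene positions equal those of GENCODE release 21 on GRCm38. Genes in both tables were joined (20385), filtered with filterByExpr (16371 left), scaled by TMM and tested with edgeR 4.0.16 (two-sided, Benjamini-Hochberg, adjusted p of 0.05). DESeq2 1.42.0 and limma-voom 3.58.1 were alternatives, with other filters, scalings and left-out libraries. Ratios of single libraries are differences of log2 CPM with a prior count of 2. Words of 25 bases were compared over GENCODE transcripts. The fit was tested on simulated data, with changes set in 200 genes of at least 100 counts. It recovered 9.5% of 1.5-fold, 78% of 2-fold and 99.5% of 4-fold changes, so it would miss most 1.5-fold changes. The simulated libraries of a genotype differed only by a random spread that followed the trend over all genes. The shares therefore do not carry over to the real libraries. There edgeR did not call Cd93 at a log2 fold change of -2.32 (adjusted p 0.21).

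The genes and lists were chosen with earlier results of these data known. Named were Gm42047, the 10 highest by mean CPM, the 6 smallest p each way, the 4 largest ratios within each genotype, every gene called in any fit, list members, 3 genes on each side of the threshold, and their neighbours. Other genes (1810058I24Rik, D230017M19Rik, Gm26809, Gm43660 and G630016G05Rik), the other hosts, the promoter examples and the Setd1b group were chosen after their values were seen.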

Additional observations from a re-analysis of the deposited data

How the results depend on the processing

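Over all genes tested, edgeR called 2, DESeq2 called 9, the fit with the deposited table as a block 29, and the fit to genes with 100 counts in every library 0. Leaving out 1 library gave 5 to 312 calls over all genes, the highest without WT 4 and the next, 44, without WT 1. Among the 107 lincRNAs edgeR called 0, DESeq2 and the fit with the table as a block 1 each (Gm42047), and the fits without 1 library 0 to 2 (Gm42047 and Malat1 without WT 4). These fits leave 1 genotype with 1 library, which is assumed to vary like the others. With RLE scaling, without the ribosomal genes in the scaling, with limma-voom and with no filter on low counts, the counts of calls were the same as in the edgeR fit. The number of genes was 177 with a threshold of 50 counts and 57 with 200. The median log2 fold change of the 107 lay between -0.07 and 0.04 under all alternatives. Of 418 values of 38 named genes under the alternatives, 4 passed the threshold where the edgeR fit over all 4 libraries did not (3 of Gm42047 and 1 of Malat1), and the other 414 stayed on their side of it. In 34 of these the sign changed for a gene whose value was within 1 SE of zero, Malat1 without WT 1 among them.

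The libraries carry the numbers 1, 4, 5 and 6, which the genotypes do not share, so the numbers pair no libraries. The only pairing at hand is that of the deposited tables, WT 1 with KO 6 and WT 4 with KO 5, and the fit with the table as a block, given above, is the paired one; the labels do not say what the libraries of a table share. With 2 libraries per genotype the 95% interval lay within 1.5-fold for 60 of the 107. Depth was not varied.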

Other observations

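AI506816, a transcript that the deposited annotation gives a retroviral envelope domain and a biotype other than lincRNA, had 348, 8, 362 and 492 counts (WT 1, WT 4, KO 5, KO 6). Gm43305, with the domain Gag_p30, had 271, 270, 375 and 133 counts. Both were noticed after the values were seen, and edgeR over all 4 libraries called neither, while the fit without WT 1 called AI506816.

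Of 26 neural and imprinted long noncoding genes tested from a list, the highest CPM was in WT 1 for 10, in WT 4 for 5, in KO 5 for 3 and in KO 6 for 8. Among those highest in WT 1, picked after their values were seen, Six3os1 had 479, 54, 39 and 43 counts and Dlx6os1 had 1034, 372, 167 and 395. Sox2ot had 797, 504, 460 and 507. Tug1, by contrast, had 2991, 3009, 2902 and 2928. Of the 26, 9 were higher and 17 lower in KO with a median log2 fold change of -0.06. Over all 4 libraries edgeR called none, the fit with the deposited table as a block called Dlx6os1 and H19, and the fit without WT 4 called these and Six3os1.

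The activity-induced messenger RNAs Fos, Arc and Npas4 had 10, 24, 16 and 12 counts, 39, 53, 58 and 35 counts, and 130, 51, 43 and 64 counts. Of 10 immediate early genes tested, 4 were higher and 6 lower in KO, none of them called by edgeR, and the median log2 fold change was -0.08.

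Of 5 names of X inactivation and X-linked noncoding genes the tables held 4, of which 2 were higher and 2 lower. Firre, an X-linked RNA that organises chromatin, had 1215, 983, 1076 and 863 counts and a log2 fold change of -0.14 (SE 0.13).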
